A study of Homo sapiens with 28 samples.

Results

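OSMR, LIFR and IL6ST encode receptor subunits for the interleukin-6 family of cytokines, and the open chromatin around these 3 genes is described here in AN3CA cells, a long-established line from a human endometrial carcinoma. The genes were taken with 70 kb on each side on chromosome 5 of hg19: OSMR (chr5:38845960-38945698, plus strand), LIFR (chr5:38475065-38595507, minus strand) and IL6ST (chr5:55230925-55290821, minus strand). They were chosen by a measured value, a peak upstream of OSMR (chr5:38783130-38783859) that was present with the wild-type proteins and absent with the empty vector. After the peak lists of all libraries had been trimmed to the same length, the windows held 16 of the 32972 regions found genome-wide, 6 around OSMR, 5 around LIFR and 5 around IL6ST.

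Accessibility was profiled by ATAC-seq, in which a transposase inserts adapters into open DNA, in 28 libraries of 13 groups, all AN3CA. The cells carried an empty vector (Empty_Vector, 4 libraries), wild-type ARID1A (ARID1A_WT, 2) or wild-type ARID1B (ARID1B_WT, 2), the large alternative subunits of the canonical BAF chromatin remodeler. The other 20 libraries came from 10 altered constructs with 2 libraries each, and "altered" below means these constructs together. For ARID1A these were ARID1A_DBDmut (mutated ARID domain), ARID1A_delIDR1 and ARID1A_CBR (truncations), ARID1A_DDX4 (a hybrid carrying the disordered region of DDX4), ARID1A_Y42S and ARID1A_AQGscramC1C2. For ARID1B they were ARID1B_S320_G327del, ARID1B_A457_G461del, ARID1B_Block13del and ARID1B_Block9del, named as in the titles. In 10 libraries of 5 constructs (ARID1A_Y42S, ARID1A_AQGscramC1C2, ARID1B_A457_G461del, ARID1B_Block13del and ARID1B_Block9del) the genotype label names the empty vector, and the title was followed. The labels do not say how the constructs were expressed, nor whether replicates were separate cultures. The p-values thus measure the spread between these libraries, and the spread between replicates may be technical. Tests of the altered libraries together also take in differences between the 10 constructs, and permute the 2 libraries of a construct as independent. Opposite differences of constructs cancel in such a pooled mean.

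IL6ST encodes gp130, the signal-transducing subunit shared by the receptors of this cytokine family. LIFR pairs with gp130 to bind leukemia inhibitory factor, and OSMR pairs with gp130 to bind oncostatin M; the resulting complexes activate JAK kinases and STAT transcription factors, STAT3 foremost. In the endometrium leukemia inhibitory factor is known for its part in embryo implantation. OSMR and LIFR are neighbours on chromosome 5, and IL6ST lies on the same chromosome next to IL31RA, the receptor subunit for interleukin-31 (gene order from RefSeq, GRCh38.p14).

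Each value below is a rank score. It is 1 for the most significant peak of a library, falls evenly to near 0 for the last of the 19433 peaks kept, and is 0 where no kept peak overlaps the region. The score places a peak among the other peaks of its own library. A lower score in a bulk library cannot tell fewer cells with an open site from less opening per cell. Deposited lists ranged from 19489 to 76589 peaks, with 24573 to 49528 for Empty_Vector and 59826 to 76589 for the wild-type proteins. List length depends on sequencing depth, which is unknown here. The date code in the peak names divided the libraries into 6 runs, called A to F. ARID1A_WT, ARID1A_CBR, ARID1A_DBDmut, ARID1A_delIDR1 and Empty_Vector each had 1 library in run A and 1 in run B, and ARID1B_WT, ARID1B_S320_G327del and Empty_Vector each had 2 in run C. Run D held ARID1A_DDX4, run F held ARID1A_AQGscramC1C2 and run E the other 4 constructs, all 3 runs without an empty vector or wild-type library.

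A region is called gained where all 4 wild-type libraries have a peak and no Empty_Vector library has one, and lost in the opposite case. Of the 16 regions 5 were gained, 2 around OSMR, 1 around LIFR and 2 around IL6ST, and 0 were lost. Genome-wide 5.78% of regions were gained and 2.27% lost. This contrast chose the genes, so the counts are a description. Another 4 of the 16 regions, 3 around LIFR and 1 around IL6ST, had a peak in all 28 libraries, as did 30.1% of regions genome-wide. The remaining 7 were present in some libraries only.

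**Figure D1:**
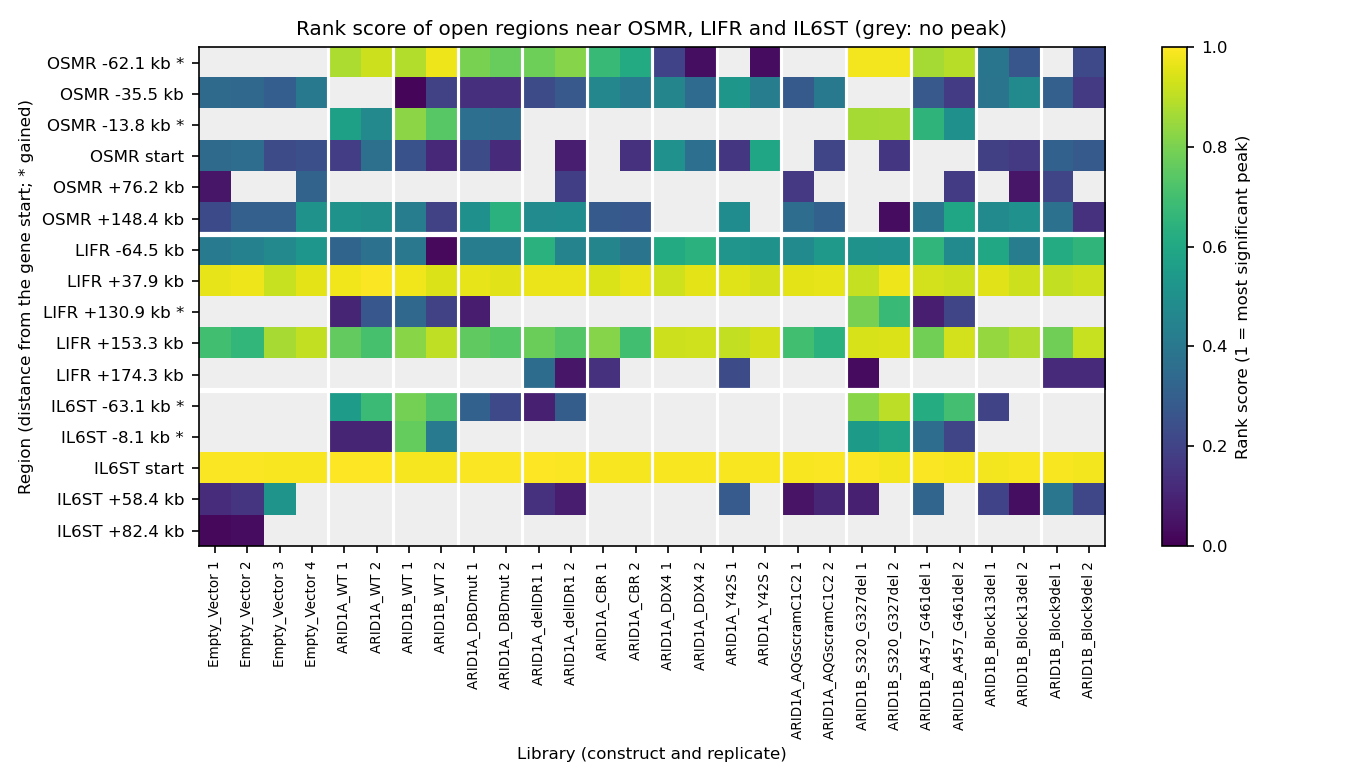
Rank score of each of the 16 regions (rows, by gene and distance from its start in kb) in each of the 28 libraries (columns). Asterisks mark the 5 gained regions, which are empty (grey) in the 4 Empty_Vector libraries. The IL6ST start region and the LIFR region at 37.9 kb are bright in all 28 libraries.

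OSMR is the subunit that gives the receptor its specificity for oncostatin M. The leading gained region lay 62.1 kb upstream of its start (chr5:38783130-38783859, 730 bp). No Empty_Vector library had a peak there, even in the lists at full length. ARID1A_WT scored 0.878 and 0.925, and ARID1B_WT scored 0.886 and 0.974, a mean of 0.916 ± 0.0439 over the 4 libraries (SD, n = 4). The wild-type score placed it 7th among the 1905 gained regions of the genome.

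Among the altered constructs the rank score of this region split into high and low. ARID1B_S320_G327del scored 0.983 and 0.982, the 324th and 342nd most significant peaks of their lists and above every wild-type library. ARID1B_A457_G461del scored 0.865 and 0.891, overlapping ARID1A_WT. ARID1A_delIDR1 followed at 0.779 and 0.818, overlapping ARID1A_DBDmut at 0.799 and 0.769. These ARID1A constructs lay below every wild-type library and above ARID1A_CBR, which scored 0.674 and 0.610.

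The remaining constructs scored under 0.4 in every library. ARID1B_Block13del had 0.390 and 0.266. ARID1A_DDX4, the hybrid with the DDX4 region, had 0.200 and 0.0387, and ARID1B_Block9del had 0 and 0.220. ARID1A_Y42S had 0 and 0.0348, and ARID1A_AQGscramC1C2 had 0 in both. These last 4 constructs overlapped their neighbours in the order, and with 2 libraries per construct no single pair was tested. At full list length 19 of the 20 altered libraries had a peak at the site, the exception being ARID1A_AQGscramC1C2 1. Fold enrichment (the caller's ratio over background) did not follow the same order. Its mean was 6.82 for ARID1B_Block13del and 6.57 for ARID1B_Block9del, above the 6.30 of ARID1A_CBR. The altered constructs above ARID1A_CBR in rank score had 6.88 to 8.23. ARID1A_DDX4 had 4.23, ARID1A_Y42S 5.09, and the 1 ARID1A_AQGscramC1C2 library with a peak 5.55.

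The 10 altered constructs differed by more than their replicates at this region (F = 61.96, permutation test over 20 libraries, p = 1e-05, the smallest that 100000 permutations can give). The altered libraries did not enter the choice of the region, but it was chosen with earlier results of these data known. Within run E, whose 4 constructs share a date code, F was 36.37 (exact permutation test, p = 0.02857; smallest possible 0.009524). Within runs A and B the 3 constructs gave F = 13.91 (exact permutation test, p = 0.1333; smallest possible 0.06667), a design that cannot reach 0.05. For ARID1A_DDX4 and ARID1A_AQGscramC1C2, construct and run cannot be told apart. List length moved in the same direction in part, from 63438 and 70321 deposited peaks for ARID1B_S320_G327del to 21157 and 23636 for ARID1A_DDX4; its part in the result was not tested, although each list was trimmed to the same length first.

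**Figure D2:**
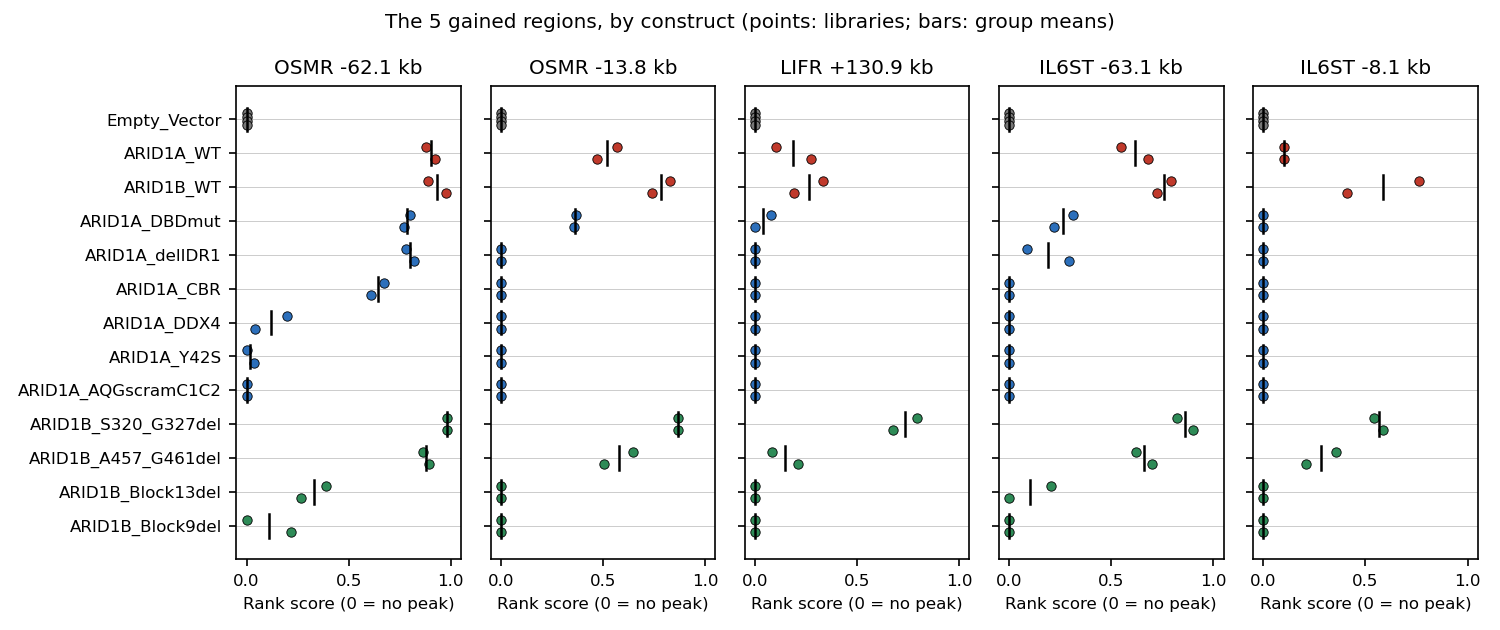
Rank score (0 = no peak kept) at the 5 gained regions, by construct. Points are libraries, vertical bars group means, grey Empty_Vector, red wild type, blue altered ARID1A and green altered ARID1B. At the OSMR region 62.1 kb upstream 16 of 20 altered libraries are above 0, and at the IL6ST region 8.1 kb upstream 4 of 20.

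The second gained region of OSMR lay 13.8 kb upstream (chr5:38830488-38832112, 1625 bp) and was called with fewer constructs. ARID1A_WT scored 0.569 and 0.469 there and ARID1B_WT 0.828 and 0.739. ARID1B_S320_G327del again stood above every wild-type library at 0.866 and 0.870. ARID1B_A457_G461del scored 0.650 and 0.504 and ARID1A_DBDmut 0.367 and 0.357. All other altered libraries and the 4 Empty_Vector libraries were at 0. In the lists at full length Empty_Vector 1 and 2 did have a peak here, ranked 39383 and 37680, so its absence in Empty_Vector holds for the trimmed lists only. At full length both libraries of ARID1A_delIDR1 (ranks 33631 and 36793), ARID1B_Block13del (26150 and 22053) and ARID1B_Block9del (29398 and 29379) also had a peak. ARID1A_CBR, which had the region 62.1 kb upstream, had none here at either length.

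Between these gained regions lay one that went the other way, 35.5 kb upstream of OSMR (chr5:38809314-38810450, 1137 bp), singled out after its values were seen. Empty_Vector scored 0.346, 0.335, 0.299 and 0.406. ARID1A_WT scored 0 in both libraries and ARID1B_WT 0.0185 and 0.195, so every wild-type library lay below every Empty_Vector library. ARID1B_S320_G327del was at 0 in both. The altered libraries exceeded the wild type by 0.242 on average (two-sided exact permutation test, p = 0.00668), with an adjusted p of 0.188 over all 32972 regions (Benjamini-Hochberg), so the difference did not pass the test. All 28 libraries had a peak here at full list length.

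The start of OSMR itself was open at a low level (chr5:38845013-38847062, 2050 bp). It was called in 22 of 28 trimmed lists and in all 28 lists at full length. Empty_Vector scored 0.345, 0.359, 0.229 and 0.246. ARID1A_WT scored 0.181 and 0.371 and ARID1B_WT 0.253 and 0.114, overlapping Empty_Vector. The altered libraries ran from 0 to 0.591 with a median of 0.158. They differed from Empty_Vector by -0.119 (two-sided exact permutation test, p = 0.190, adjusted p = 0.952) and from the wild type by -0.0537 (two-sided exact permutation test, p = 0.560, adjusted p = 0.925). Both differences turned positive in several other settings of the lists, so no direction is read from them. With lists of 9716 peaks the sign was fixed in advance. The best rank here was 12460 in Empty_Vector and 12234 in the wild type, so both groups scored 0 in that setting. Within the runs that hold both groups, the altered libraries lay below Empty_Vector by a wider margin, -0.202 (exact permutation test, p = 0.00606, adjusted p = 0.195).

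The DNA before the start is shown because it lies where this start region sits. The sequence is RefSeq's (GRCh38.p14), 250 bases before the start, 5′ to 3′ on the gene's strand, with GC boxes (GGGCGG, either strand) in capitals.
OSMR: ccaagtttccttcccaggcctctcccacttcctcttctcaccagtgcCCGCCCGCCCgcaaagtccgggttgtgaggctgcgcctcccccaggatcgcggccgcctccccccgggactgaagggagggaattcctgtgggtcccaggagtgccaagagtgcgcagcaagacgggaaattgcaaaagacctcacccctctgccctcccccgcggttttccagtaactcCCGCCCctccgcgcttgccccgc
It is 66.4% G or C with 17 CpG, against medians of 58.0% and 11 over 35116 promoters of the same length. It holds 3 GC boxes, overlapping in part, and 42.6% of all promoters hold at least 1. The letters of an AP-1 site were searched as TGANTCA, those of a STAT site as TTCNNNGAA, those of a TATA box as TATAAA and those of a TEAD site as GGAATG, on both strands. None of these occurs in the 250 bases shown for OSMR.

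LIFR, the subunit for leukemia inhibitory factor, had its 1 gained region 130.9 kb downstream of its start, past the end of the gene on the side of EGFLAM (chr5:38463973-38464618, 646 bp). No Empty_Vector library had a peak there at any list length. The wild-type peaks were low, at 0.104 and 0.273 for ARID1A_WT and 0.332 and 0.192 for ARID1B_WT, a mean of 0.225 ± 0.0993 (SD, n = 4). It was the 1697th of the 1905 gained regions by wild-type score. ARID1B_S320_G327del scored 0.795 and 0.674, more than any wild-type library. ARID1B_A457_G461del scored 0.0834 and 0.209, and ARID1A_DBDmut 0.0773 and 0. The other 7 altered constructs were at 0 in both libraries, and of these ARID1A_delIDR1 (both libraries) and ARID1A_CBR 2 had a peak at full list length.

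The rule's start of LIFR, its outermost, had no peak in any trimmed list. At full length a narrow peak (chr5:38595396-38595805, 410 bp) appeared there in 8 libraries, among them all 4 wild-type libraries and no Empty_Vector library. The other 4 were both ARID1B_S320_G327del libraries, ARID1A_DBDmut 1 and ARID1B_A457_G461del 2. These were weak peaks, ranked between 35019 and 47333 in their lists. Of the Empty_Vector libraries, replicates 1 and 2 had lists long enough to hold such a rank (45286 and 49528 deposited peaks). The part of list length in these calls was not tested.

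The open start of LIFR lay inside the gene, 37.9 kb from the outermost start (chr5:38556121-38557581, 1461 bp). It had a peak in all 28 libraries. Empty_Vector scored 0.961, 0.976, 0.916 and 0.960, ARID1A_WT 0.977 and 0.993, and ARID1B_WT 0.980 and 0.946. The altered libraries ran from 0.907 to 0.974 with a median of 0.952. They differed from Empty_Vector by -0.00765 (two-sided exact permutation test, p = 0.525, adjusted p = 1) and from the wild type by -0.0282 (two-sided exact permutation test, p = 0.0192, adjusted p = 0.232). Neither passed the test. The first ran from -0.0200 without Empty_Vector 3 to -9.09e-05 without Empty_Vector 2, was -0.00503 without Empty_Vector 1, and was positive within the runs that hold both groups (0.00377) and with the ranking by fold enrichment (0.0149).

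RefSeq lists 3 starts for LIFR, the inner ones 37938 and 38759 bases from the outermost (GRCh38.p14). The open region spans 37926 to 39386 bases from the outermost start of the rule (hg19), so both inner starts fall in its range if the distances are equal in the builds, which was not checked. The middle start would then lie near the region's edge, with most of the 250 bases shown before it outside the region. All 3 promoters are shown because the outermost start had a peak in 8 libraries and the region of the inner starts in 28. Capitals mark GC boxes and STAT, TATA or TEAD letters.
LIFR outermost start: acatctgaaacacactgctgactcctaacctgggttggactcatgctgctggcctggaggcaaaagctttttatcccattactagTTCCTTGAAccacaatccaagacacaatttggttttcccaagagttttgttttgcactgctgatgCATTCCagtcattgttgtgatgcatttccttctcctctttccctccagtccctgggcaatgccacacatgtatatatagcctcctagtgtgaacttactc
LIFR middle start: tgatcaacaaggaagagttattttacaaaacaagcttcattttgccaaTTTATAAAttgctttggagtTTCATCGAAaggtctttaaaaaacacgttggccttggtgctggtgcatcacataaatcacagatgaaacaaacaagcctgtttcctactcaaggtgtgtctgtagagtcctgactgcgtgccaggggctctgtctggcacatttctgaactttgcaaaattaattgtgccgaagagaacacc
LIFR innermost start: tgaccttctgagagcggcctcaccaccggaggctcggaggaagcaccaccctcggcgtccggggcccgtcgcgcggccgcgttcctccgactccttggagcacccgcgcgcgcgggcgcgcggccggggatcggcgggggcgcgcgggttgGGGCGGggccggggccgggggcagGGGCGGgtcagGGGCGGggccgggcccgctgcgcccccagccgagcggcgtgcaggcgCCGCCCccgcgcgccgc
The outermost promoter is 45.2% G or C with 0 CpG. It holds 1 STAT match and 1 TEAD match, which 6.57% and 11.9% of all promoters also hold. The middle one is 40.8% G or C with 4 CpG and no GC box. It holds 1 STAT match, and 2 TATA matches that overlap on opposite strands, which 10.7% of promoters hold. The innermost is 83.6% G or C with 44 CpG and 4 GC boxes. AP-1 letters, held by 6.57% of promoters, are in none of the 3 LIFR sequences shown.

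Upstream of LIFR, on the side of OSMR, a region 64.5 kb from the start (chr5:38660026-38660770, 745 bp) was open in all libraries. Its mean rank score was lowest with the wild-type proteins, and it was singled out after its values were seen. Mean fold enrichment was 7.12 for the wild type and 7.46 for Empty_Vector. It was lower for ARID1A_DDX4 (6.06), ARID1A_CBR (6.31), ARID1A_Y42S (6.52) and ARID1A_DBDmut (7.05). The other altered constructs were above the wild type in fold enrichment. ARID1A_WT scored 0.324 and 0.373 and ARID1B_WT 0.401 and 0.0262. Empty_Vector scored 0.417, 0.441, 0.470 and 0.525, all above the wild type. Of the 20 altered libraries 19 lay above every wild-type library. They exceeded it by 0.245 on average (two-sided exact permutation test, p = 0.000188), with an adjusted p of 0.0748 over all regions, which missed 0.05. Without ARID1B_WT 2, the lowest library, the difference was 0.160. ARID1B_S320_G327del scored 0.513 and 0.508 here, with the other altered constructs. ARID1B_S320_G327del stood above every wild-type library at the gained regions other than the IL6ST region 8.1 kb upstream. How often it does so over all gained regions of the genome was not counted. It is therefore not read as a trait of these genes.

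IL6ST, the shared gp130 subunit, had the highest-ranked start of the 3 genes (chr5:55290244-55291500, 1257 bp). All 28 libraries scored from 0.982 to 0.999, and ARID1A_WT 2 had it as the 13th most significant peak of its list. Empty_Vector scored 0.995, 0.994, 0.991 and 0.991, ARID1A_WT 0.997 and 0.999, and ARID1B_WT 0.987 and 0.988. The altered libraries differed from Empty_Vector by -0.00202 (two-sided exact permutation test, p = 0.374) and from the wild type by -0.00227 (two-sided exact permutation test, p = 0.383). The first ran from -0.00270 to -0.00131 with 1 library left out, smallest without Empty_Vector 1. The second ran from -0.00428 without ARID1B_WT 1 to -7.55e-05 without ARID1A_WT 2, was -0.00399 without ARID1B_WT 2 and -0.000727 without ARID1A_WT 1, and was 0.0759 when peaks were ranked by fold enrichment.

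**Figure D3:**
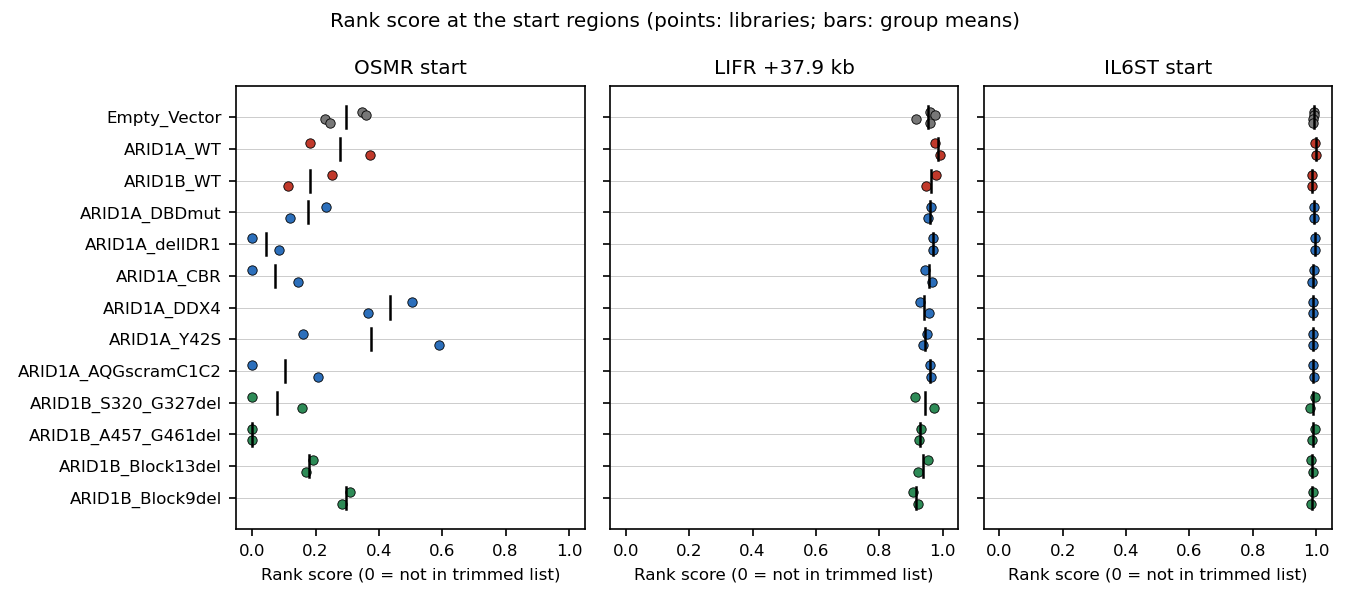
Rank score (0 = not in the trimmed list) at the region nearest to the start of each gene, by construct; points are libraries and vertical bars group means. IL6ST lies between 0.982 and 0.999 and LIFR between 0.907 and 0.993 in all groups, while OSMR spreads from 0 to 0.591.

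The IL6ST promoter is shown as that of the highest-ranked start of the 3 genes, with GC boxes in capitals.
IL6ST: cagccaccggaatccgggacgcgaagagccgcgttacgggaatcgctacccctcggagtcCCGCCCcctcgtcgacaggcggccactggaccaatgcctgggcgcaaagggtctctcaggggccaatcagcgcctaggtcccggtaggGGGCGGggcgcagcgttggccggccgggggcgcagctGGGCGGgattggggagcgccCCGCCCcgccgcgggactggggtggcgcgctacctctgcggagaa
It is 73.6% G or C with 31 CpG and 4 GC boxes, and no AP-1, STAT, TATA or TEAD letters occur in it. GC boxes were thus found at OSMR, IL6ST and the innermost LIFR start, and not at the middle LIFR start, which may share the open region of the innermost.

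Both gained regions of IL6ST lay upstream. The farther one, 63.1 kb from the start (chr5:55353884-55354817, 934 bp), had wild-type scores of 0.549 and 0.682 with ARID1A_WT and 0.791 and 0.722 with ARID1B_WT, 189th among all gained regions. ARID1B_S320_G327del scored 0.823 and 0.901, again above every wild-type library. ARID1B_A457_G461del scored 0.621 and 0.700, inside the wild-type range.
ARID1A_DBDmut scored 0.311 and 0.221, ARID1A_delIDR1 0.0888 and 0.293, and ARID1B_Block13del 0.207 and 0, all below the wild type. The other altered libraries were at 0. At full list length 15 of the 20 altered libraries had a peak here. Among them were both libraries of ARID1A_CBR (ranks 26133 and 31294) and of ARID1B_Block9del (28236 and 25974). ARID1B_Block13del 2 (22411) and ARID1A_AQGscramC1C2 2 (35325) also had one, and so did 1 Empty_Vector library, ranked 45806.

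The nearer region, 8.1 kb upstream of IL6ST (chr5:55298963-55299913, 951 bp), was called with 2 of the 4 altered ARID1B constructs and with no altered ARID1A construct in the trimmed lists. ARID1B_WT scored 0.763 and 0.408, and ARID1A_WT 0.102 and 0.103, the lowest of any wild-type pair at the 5 gained regions. ARID1B_S320_G327del scored 0.544 and 0.584 and ARID1B_A457_G461del 0.357 and 0.207. All 12 altered ARID1A libraries were at 0, and so were both libraries of ARID1B_Block13del and of ARID1B_Block9del, which had no peak at full length either. At full length ARID1A_CBR 2 and ARID1A_delIDR1 2 also had weak peaks, ranked 62012 and 45138, and no Empty_Vector library did. The difference between the ARID1A and ARID1B forms was not tested, and they share no run among the wild types.

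Just outside the rule for a lost region was one inside IL6ST, 58.4 kb from the start (chr5:55231851-55232447, 597 bp). Empty_Vector scored 0.127, 0.149, 0.517 and 0 and the wild type 0 throughout, 1 library short of lost. At full list length all 4 wild-type and all 4 Empty_Vector libraries had a peak there. Just inside the rule for gained were the IL6ST region 8.1 kb upstream, with wild-type scores down to 0.102, and the gained LIFR region, with scores down to 0.104.

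Over the 5 gained regions the altered constructs can be set beside their calls at all 1905 gained regions of the genome. ARID1B_S320_G327del called all 5 in both libraries (91.4% genome-wide), and so did ARID1B_A457_G461del (76%). ARID1A_DBDmut called 3 (40.1%), ARID1A_delIDR1 2 (37.7%), ARID1A_CBR 1 (16.5%) and ARID1B_Block13del 1 (19.9%). ARID1A_DDX4 called 1 (4.09%). ARID1A_Y42S, ARID1A_AQGscramC1C2 and ARID1B_Block9del called 0 in both libraries, with 1.68%, 1.52% and 1.57% genome-wide. Several of these counts moved with the lists. At full length, with the same 5 regions, ARID1A_DBDmut and ARID1A_delIDR1 each called 4 in both libraries. ARID1B_Block13del called 3, ARID1B_Block9del 3, ARID1A_CBR 2 and ARID1A_Y42S 1. ARID1A_DDX4 called 0 with lists of 9716 peaks, with a 50% overlap or at an equal covered length. With lists of 9716 peaks and at an equal covered length ARID1A_DBDmut and ARID1A_delIDR1 each called 1 and ARID1B_A457_G461del 3. ARID1B_S320_G327del called all 5 in each of these settings and ARID1A_AQGscramC1C2 0. Shares over the same 1905 regions were not counted in these settings, so the moved counts have no genome-wide share beside them.

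The OSMR region 62.1 kb upstream was the broadest of the 5. It was called in both libraries by 7 of the 10 altered constructs, against a median of 3 over all gained regions. The IL6ST region 63.1 kb upstream was called by 4, the OSMR region 13.8 kb upstream by 3, and the LIFR region and the IL6ST region 8.1 kb upstream by 2 each. Every altered library that called one of the other 4 also called the OSMR region 62.1 kb upstream.

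Over all 28 libraries, the score of the OSMR region 62.1 kb upstream went with that of the IL6ST region 63.1 kb upstream (Pearson r = 0.834) and the OSMR region 13.8 kb upstream (r = 0.784). The r was lower for the IL6ST region 8.1 kb upstream (0.611) and the LIFR region (0.594). Of the 32972 regions, 403 had a higher r than the IL6ST region 63.1 kb upstream and 620 than the OSMR region 13.8 kb upstream. For the IL6ST region 8.1 kb upstream and the LIFR region these numbers were 2122 and 2441. The r was -0.704 for the OSMR region 35.5 kb upstream. These values are descriptions; the gained regions share the choice by wild type and Empty_Vector, and replicates share construct and run. The 3 regions of the genome most like the OSMR region, all of them gained, were chr10:69913219-69914142 (r = 0.986), chr6:15504299-15505918 (r = 0.984) and chr7:28725001-28726268 (r = 0.977). Gene positions of hg19 were not used here, so these are given without gene names.

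For the 11 regions of the windows that were not gained, neither comparison of the altered libraries gave a call. Genome-wide the exact permutation test with Benjamini-Hochberg adjustment called 0 of 32972 regions (0%) for altered against Empty_Vector and 0 (0%) for altered against wild type. At an unadjusted p under 0.05 these tests gave 2222 and 5104 regions genome-wide, and 1 and 3 of the 11. The 2 comparisons share the altered libraries, and the smallest p the 10626 arrangements allow is 9.41e-05.

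At full list length the windows held 51 of 95411 regions, 17 around OSMR, 19 around LIFR and 15 around IL6ST. Of these 10 were gained (18.2% genome-wide) and 0 lost (0.0828% genome-wide). OSMR had 4 and LIFR 4, while IL6ST had 2. Of the 10, 3 were among the gained regions of the trimmed lists, and the 7 others were not among the 16 regions. The windows held 8 to 19 peaks per Empty_Vector library, 32 and 42 for ARID1A_WT, 30 and 33 for ARID1B_WT, and 7 and 8 for ARID1A_DDX4. In lists of equal length these were 8 to 10, 11 and 11, 12 and 14, and 7 and 7 peaks, a narrower spread.

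**Figure D4:**
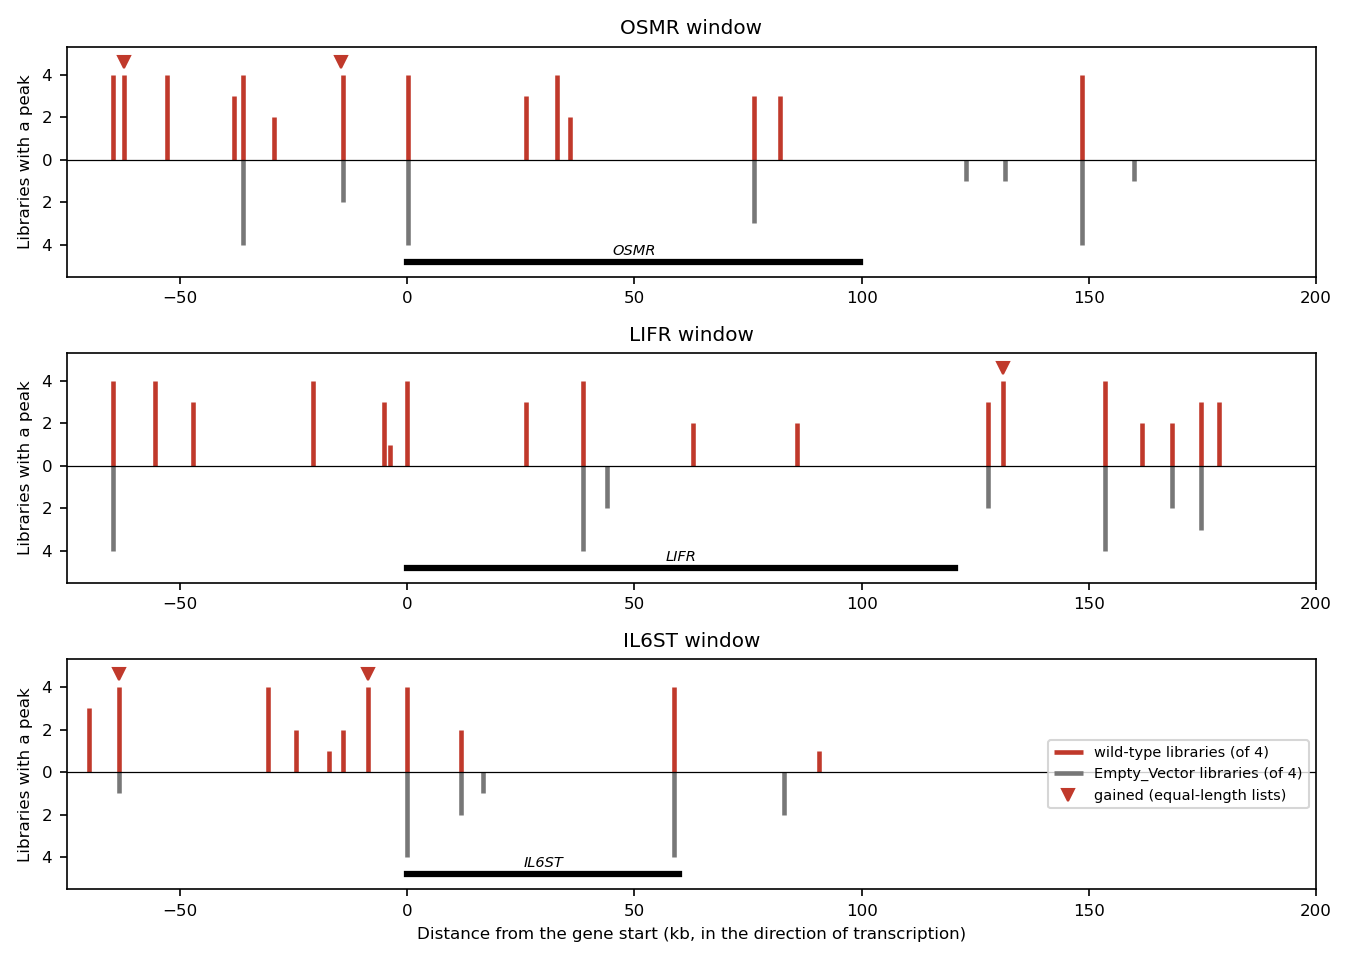
Regions of the lists at full length by distance of their centre from the gene start (kb, in the direction of transcription). Bars upward count wild-type libraries with a peak (of 4), bars downward Empty_Vector libraries (of 4), black lines mark the genes and triangles the 5 gained regions of the trimmed lists. Of the 5 triangles 4 lie upstream of a start and 1 past the end of LIFR.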

How the data were processed

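Peak lists of 28 ATAC-seq libraries of AN3CA cells, 1 list per library and so called per sample, were used as deposited. The series' design text describes CUT&Tag; the titles name ATAC-seq and were followed. Per the submitters' processing notes, the build was hg19, and MACS2, SAMtools 0.1.19, Picard 2.8.0, Bowtie2 and bcl2fastq were used. For caller options, control and cut-site shift the sources used here give nothing. Each deposited peak carries the authors' score, their fold enrichment (a ratio over the caller's background), and −log10 p- and q-values. Depth is unknown, so no counting interval is given.

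Lists were restricted to chromosomes 1 to 22 and X, ranked by −log10 p and trimmed to 19433 peaks, the shortest list. Overlapping peaks (1 bp) were merged, and regions found in a single library were dropped (minimum 2 libraries). Samples were grouped by title. Differences in mean rank score were tested at every region by exact permutation (two-sided, Benjamini-Hochberg over all regions, threshold 0.05), and F between constructs at 1 region by 100000 permutations (Python 3.11.15, numpy 2.4.6, scipy 1.17.1). The code was tested on simulated data. Named regions were every gained or lost region in the windows and the region nearest to each start. The members and lists were chosen with earlier results of these data known. Sequences of the regions, their nearest genes and the other genes of the pathway need an hg19 reference and were not analysed here. Alternatives were other list lengths, rankings, overlaps, windows and left-out libraries.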

Additional observations from a re-analysis of the deposited data

Results flagged for a closer look

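At the start of IL6ST, the gp130 gene, the wild-type proteins moved in opposite directions against the Empty_Vector libraries of their own runs. Both ARID1A_WT libraries were higher, by 0.00412 in rank score on average, and both ARID1B_WT libraries were lower, by a mean difference of -0.00363. The difference between ARID1A_WT and ARID1B_WT was not tested, and both are small beside the range of this region over all libraries (0.982 to 0.999).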

How the results depend on the processing

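Trimmed lists gave 16 regions and 5 gained regions (5.78% gained genome-wide). The counts became 51 and 10 at full list length (18.2%), and 44 and 8 at full length with −log10 q of at least 5 (17%). They were 8 and 3 with 20 kb on each side. Gained regions were 2 with lists of 9716 peaks (2.52% genome-wide). They were 3 each when peaks were ranked by fold enrichment (4.76%) or lists cut to an equal covered length (2.35%). Lost regions were 1 with the ranking by fold enrichment (1.51% genome-wide). Leaving out each wild-type or Empty_Vector library in turn gave 15 to 16 regions, 5 to 5 gained and 0 to 1 lost, the 1 being without Empty_Vector replicate 4. Over the left-out libraries, altered against wild type gave 0 to 1 calls in the windows (1 without ARID1B_S320_G327del replicate 2), and altered against Empty_Vector 0 to 0. Calls over the whole genome are not given for these settings. F between constructs at the OSMR region 62.1 kb upstream ran from 50.01 to 108.5 over left-out libraries (permutation p from 1e-05 to 4e-05), highest without ARID1B_Block9del replicate 2 (108.5) or replicate 1 (101.8), and was 9.947 with the ranking by fold enrichment (permutation p = 0.0016). Some differences changed sign, none with an adjusted p under 0.05. At the OSMR start, altered minus Empty_Vector was 0.00962 with lists of 9716 peaks, 0.0277 with the ranking by fold enrichment and 0.0501 at equal covered length, and altered minus wild type 0.00962, 0.0863 and 0.0501. At the LIFR start region, altered minus Empty_Vector was 0.0149 with the ranking by fold enrichment and 0.00377 within the runs that hold both groups. At the IL6ST start, altered minus wild type was 0.0759 with the ranking by fold enrichment. With lists of 9716 peaks all Empty_Vector and wild-type libraries scored 0 at the OSMR start, so the sign there was fixed. The cause of the other changes of sign was not tested. With the replicate number as a replicate block, F was 61.96 (permutation p = 0.0001) and both tests gave 0 calls; same-numbered libraries deviated together (r over 0.1) in only 1 of 66 pairs of groups (r from -0.0836 to 0.146), which does not pair the libraries over the whole series. In 5 groups, however, replicate 1 is in run A and replicate 2 in run B, so there the number also marks the run; 3 of their 10 pairs of groups were over 0.1 (r from -0.0281 to 0.208). With the run as a block instead, an alternative chosen after seeing the data, F had a permutation p of 0.0094 and both tests again gave 0 calls, while altered minus Empty_Vector at the LIFR start region was 0.00377. Unknown depth limits every statement on an absent peak.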
